A study of Mus musculus with 14 samples.

Results

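The genes described here are 32 genes of glycolysis and of the cell's response to low oxygen, measured in mouse bone marrow-derived macrophages. They were chosen by symbol for their known roles, with earlier results of these data known. All 32 were among the 47937 genes counted and all 32 passed the filter on low counts, which left 13061 genes. The macrophages were grown in culture from bone marrow precursors and carry a wild-type label. Of the 14 libraries, 6 are of untreated cells, 5 of cells kept for 3.5 h in mast cell supernatant, and 3 of cells kept as long in supernatant of mast cell intracellular traps (called trap supernatant below). Each library carries a batch label, 1, 2 or 3, whose meaning is not explained. Whether the replicates of a group are separate cultures or animals is not said. The p-values therefore measure only the spread between these libraries, which may be technical.

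Glycolysis splits glucose into pyruvate and yields ATP without oxygen. Macrophages that meet microbial products are known to take up more glucose and release more lactate, and the transcription factor HIF-1 is one known driver of that change. Its alpha subunit, encoded by Hif1a, is hydroxylated by Egln enzymes and then destroyed through Vhl while oxygen is present. When it escapes, it pairs with Arnt and binds the core ACGTG or GCGTG near its target genes, which include many glycolysis genes.

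These 5-base cores were looked for, on both strands, in the 250 bases ahead of each annotated start (RefSeq promoter windows, GRCm38.p6). A sequence such as CACGTG holds a core on each strand and counts as 2 overlapping matches. Windows were found for 31 of the 32 genes; Ndrg1 had none. Of their 45 windows, 36 (80%) held at least 1 core, against 38.6% of all 32851 windows, and 22 (48.9%) held at least 2, against 16.7%. Many of the 32 are textbook HIF-1 targets, so these shares are a description only, and a match is not a binding site. The 5 windows below belong to genes on which the results turn: Hk2 and Ankrd37 were the lowest relative to untreated libraries, Pgk1 and Pdk1 rose, and Hilpda differed by batch. Each is written 5′ to 3′ on the gene's own strand, with the cores in capitals (CACGT and CACGC are the same cores read from the other strand). For Pdk1 and Hilpda, which have 2 windows each, the one with a core is shown.
The window of Hk2 (chr6:82774455-82774704, minus strand) holds 2 cores.
Hk2: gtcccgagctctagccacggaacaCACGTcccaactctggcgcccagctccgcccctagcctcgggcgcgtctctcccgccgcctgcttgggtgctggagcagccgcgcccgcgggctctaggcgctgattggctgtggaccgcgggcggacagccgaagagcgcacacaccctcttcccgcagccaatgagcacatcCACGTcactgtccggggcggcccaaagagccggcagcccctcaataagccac
The window of Ankrd37 (chr8:45999851-46000100, minus strand) holds 4.
Ankrd37: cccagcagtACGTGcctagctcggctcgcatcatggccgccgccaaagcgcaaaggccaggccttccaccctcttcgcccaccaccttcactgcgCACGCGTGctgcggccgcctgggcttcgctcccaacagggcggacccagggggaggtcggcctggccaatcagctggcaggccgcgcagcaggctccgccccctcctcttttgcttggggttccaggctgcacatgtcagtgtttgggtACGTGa
The window of Pgk1 (chrX:106186850-106187099, plus strand) holds 2.
Pgk1: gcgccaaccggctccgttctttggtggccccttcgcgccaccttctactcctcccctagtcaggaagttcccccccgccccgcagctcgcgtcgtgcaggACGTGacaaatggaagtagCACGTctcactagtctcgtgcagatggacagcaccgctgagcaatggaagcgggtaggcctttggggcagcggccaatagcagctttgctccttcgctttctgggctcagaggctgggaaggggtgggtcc
The window of Pdk1 (chr2:71872974-71873223, plus strand) holds 1.
Pdk1: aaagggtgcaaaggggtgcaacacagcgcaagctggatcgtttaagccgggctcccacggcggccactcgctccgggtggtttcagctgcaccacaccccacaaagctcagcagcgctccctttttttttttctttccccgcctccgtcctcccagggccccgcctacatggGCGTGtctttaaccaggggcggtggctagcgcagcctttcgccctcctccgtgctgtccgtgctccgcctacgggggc
The window of Hilpda (chr6:29272376-29272625, plus strand) holds 3.
Hilpda: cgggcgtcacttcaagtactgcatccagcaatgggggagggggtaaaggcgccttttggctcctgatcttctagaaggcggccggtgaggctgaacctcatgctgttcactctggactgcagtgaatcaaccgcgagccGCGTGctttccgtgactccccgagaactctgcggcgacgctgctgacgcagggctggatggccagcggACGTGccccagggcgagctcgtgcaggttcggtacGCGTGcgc

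Library totals ran from 11729073 to 22720419 counts. Macrophage markers were high in every library, with Adgre1, which encodes F4/80, at 1660 to 2250 CPM (normalised counts, scaled to the same total in every library) and Csf1r, the receptor for macrophage colony-stimulating factor, at 1890 to 3220 CPM. Lyz2, the macrophage lysozyme gene, separated the batches instead: it was at 9980 to 10900 CPM in batch 1 and 4720 to 5200 CPM in batch 2, while each of the 5 batch 3 libraries held 1 or 2 Lyz2 reads. All 14 libraries carry the same genotype label. Whether the batches differ in genotype was not tested, and such a difference and the batch cannot be told apart here. The pooled comparisons and the tests between batches are therefore also given without batch 3 where that ends a call. Mast cell transcripts moved with treatment. Of 22 mast cell markers, 6 (Mcpt4, Tpsb2, Tpsab1, Mrgprb1, Mrgprb2 and Tph1) were at 0 in all untreated libraries, and the summed level of the list was 780 to 1160 CPM untreated, 1300 to 2380 CPM with mast cell supernatant and 1380 to 3380 CPM with trap supernatant. The 16 markers with a mean under 1 CPM in these untreated libraries were also summed. Their sum was 0.892 to 2.12 CPM untreated, which is low by that choice. It reached 76.6 to 102 CPM in batch 1, 789 to 1480 CPM in batch 2 and 238 to 2140 CPM in batch 3 of the treated libraries. Neutrophil markers summed to 133 to 449 CPM untreated, 105 to 386 CPM with mast cell supernatant and 114 to 376 CPM with trap supernatant. The part of mast cell RNA in the differences below was not tested. In such bulk samples, fewer cells of a type and less RNA per cell cannot be told apart.

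The 32 genes together took 0.925% to 1.13% of the counts of an untreated library. Their median level over all libraries was 109 CPM, against 22.6 CPM for all genes tested, and 31 of the 32 reached a mean of 5 CPM. Egln3, an oxygen-sensing hydroxylase gene, was the exception at 4.56 CPM. Per kilobase of exon, the most abundant in untreated libraries were Aldoa, the aldolase A gene, at 632 ± 68.8 CPM per kb (SD, n = 6), and Pkm, the pyruvate kinase gene, at 462 ± 67 CPM per kb. Gapdh followed at 269 ± 35.6 CPM per kb. The lowest were Pfkm, at 3.19 to 4.32, and Egln3, at 1.04 to 2.59 CPM per kb.

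The hexokinase and aldolase steps were each dominated by 1 isozyme. Hk3, a hexokinase gene typical of myeloid cells, was at 118 ± 34.7 CPM per kb in untreated libraries (SD, n = 6). Hk2, the inducible hexokinase gene, was at 15.9 ± 5.23 and Hk1, the ubiquitous one, at 14.4 ± 1.71 CPM per kb, which did not differ beyond their spread over all 6 libraries. Their order per kb depended on the batch. Hk1 was above Hk2 in batch 1 (14.7 against 12.7) and batch 2 (15.9 against 13.1). Hk2 was above Hk1 in batch 3 (22 against 12.7), and in no batch did the 2 libraries of each gene overlap. A gene's length here is that of all its annotated exons joined (8532 bases for Hk1 and 5969 for Hk2), not of 1 transcript. Comparisons of different genes per kb depend on that length. Undivided, the batch 3 values overlapped, with Hk1 at 120 and 96.9 CPM and Hk2 at 153 and 110 CPM. Of the summed level of Hk1, Hk2 and Hk3 per kb, Hk2 made up 11% ± 2.98 untreated, 6.13% ± 0.787 with mast cell supernatant (n = 5) and 7.66% ± 1.33 with trap supernatant (n = 3). Among the phosphofructokinase genes, which encode the enzyme that commits sugar to glycolysis, Pfkp was at 16.7 ± 2.86, Pfkl at 10.6 ± 1.22 and Pfkm at 3.81 ± 0.457 CPM per kb. Aldoa exceeded Aldoc, the aldolase C gene, in every library, with Aldoc at 10.4 ± 3.94 CPM per kb untreated. Of the lactate transporters, Slc16a3 was at 17.4 ± 3.07 and Slc16a1 at 7.77 ± 1.35 CPM per kb.

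**Figure D1:**
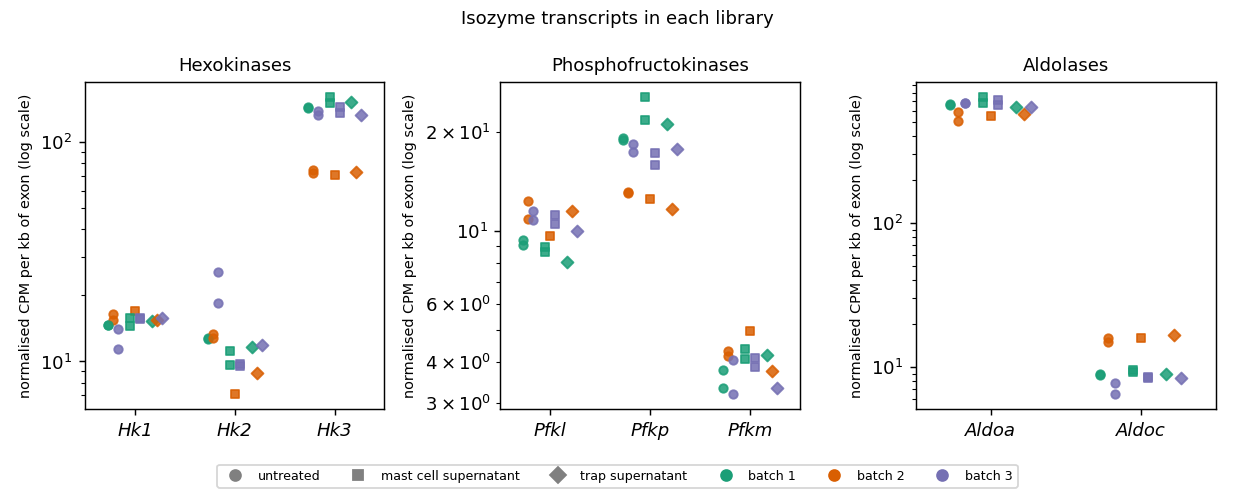
Isozyme transcripts in each of the 14 libraries, as normalised CPM per kb of exon on a log scale; shapes are groups and colours are batches. Hk3 lay above Hk1 and Hk2 and Aldoa above Aldoc in every library, and the batch 2 libraries were low in Hk3 and high in Aldoc.

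With mast cell supernatant, 3 of the 32 genes rose and 3 fell. The falls were in Hk2, in Pfkfb3, whose product makes the main activator of phosphofructokinase, and in Ankrd37, a HIF-1 target of little known function. The rises were smaller and all at the later steps: Pgk1 (phosphoglycerate kinase), Pkm, and Pdk1, a kinase that holds pyruvate back from oxidation in the mitochondria. The 6 of 32 stood beside 4.79% of all genes (edgeR's quasi-likelihood test with Benjamini-Hochberg adjustment, used for every adjusted p below unless another tool is named), with 2.17% of all genes called higher and 2.62% lower, and beside 5.46% of the genes with a mean of 5 CPM or more. By DESeq2 7 passed, beside 884 of all 13061 genes, and 16 had an unadjusted p under 0.05, beside 2501 of all genes. The median log2 difference of the 32 genes was 0.05, against -0.01 for all genes. Replicate numbers 1 to 3 carry the same batch label in every group, and a fit of those 9 libraries with the number as a block called 0 of the 32. In it, Hk2 had -0.93 (adjusted p = 0.153), Pfkfb3 -0.53 (0.148), Ankrd37 -0.81 (0.249), Pdk1 0.22 (0.345), Pkm 0.17 (0.28) and Pgk1 0.14 (0.466). No member passed without the batch term or without batch 2, although the differences of the 6 kept their direction. Hk2 had -0.76 without the batch term (adjusted p = 0.139) and -0.74 without batch 2 (0.122), close to the reported -0.78.

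**Figure D2:**
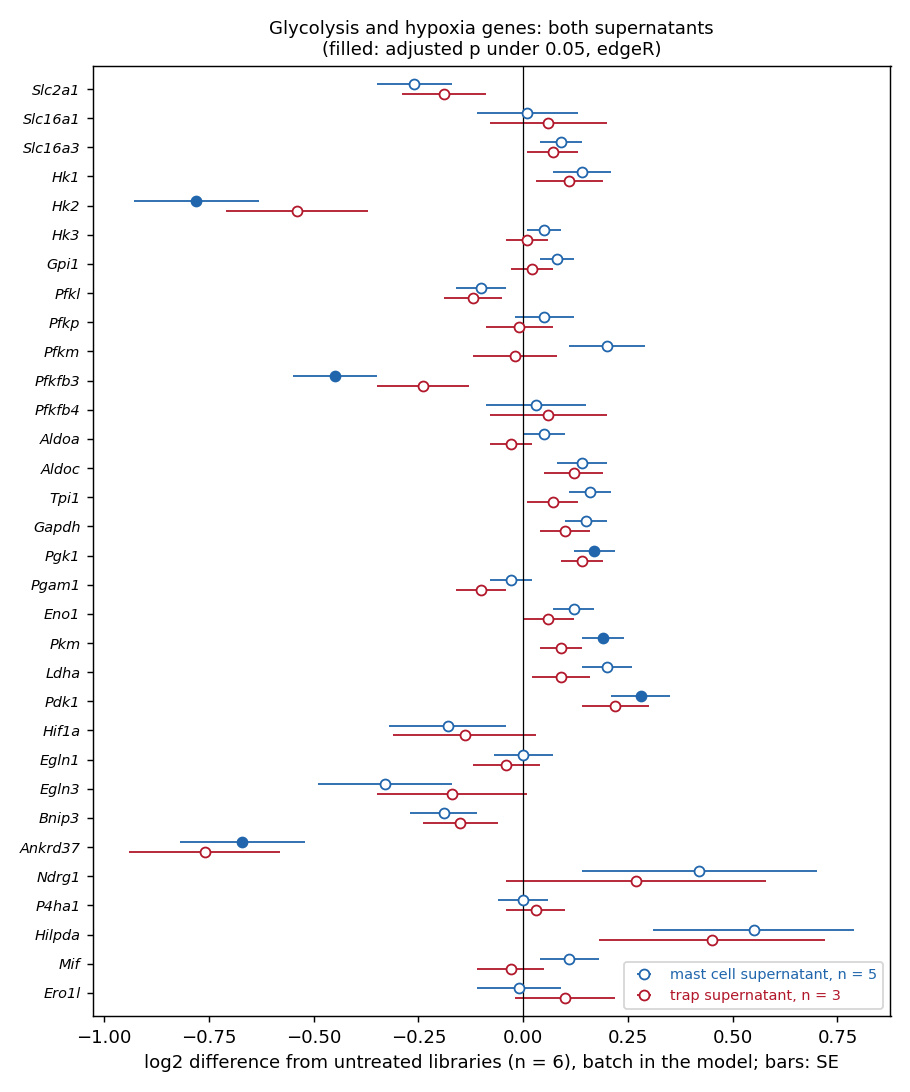
Log2 difference from the 6 untreated libraries for each of the 32 genes, with mast cell supernatant (n = 5) and trap supernatant (n = 3); points are edgeR estimates with batch in the model, bars are SE, and filled points passed at an adjusted p under 0.05. Hk2 and Ankrd37 lay farthest below 0 with both supernatants, the 6 filled points all belong to mast cell supernatant, and both sets share the untreated libraries.

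Hk2 (ENSMUSG00000000628; chromosome 6, 82725025 to 82774454, GRCm38) showed the largest difference of the 6. It was at 75.4 to 153 CPM untreated, with a median of 78. Its levels after mast cell supernatant were 57.2 and 67 CPM in batch 1, 42.3 CPM in batch 2 and 57.2 and 57.9 CPM in batch 3. Every treated library lay below every untreated one. Hk2 was the only one of the 32 whose groups did not overlap here, beside 1.09% of all genes that were lower and 0.735% that were higher without overlap. The fall was 1.72-fold, a log2 difference of -0.78 ± 0.15 (SE; adjusted p = 0.0109). The log2 difference of means was -0.29, -0.88 and -1.17 in batches 1, 2 and 3. Untreated batch 3 libraries held more Hk2 (mean 131 CPM) than those of batches 1 and 2 (75.8 and 78 CPM). Without batch 3 Hk2 still fell, by 0.52 (adjusted p = 0.0342), and its call held in all 14 fits that left out 1 library.

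Pfkfb3 (ENSMUSG00000026773; chromosome 2, 11471433 to 11554077) was at 44.6 to 84.5 CPM untreated, with a median of 47.2. The libraries given mast cell supernatant had 40.3 and 44.2 CPM in batch 1, 30.8 CPM in batch 2, and 46.7 and 46.4 CPM in batch 3. The groups overlapped, and untreated levels were higher in batch 3 (mean 73 CPM) than in batches 1 and 2 (46.8 and 45.5 CPM). Pfkfb3 fell by 0.45 ± 0.1 (adjusted p = 0.0152), with -0.15, -0.56 and -0.63 by batch. The call was lost without batch 3 (-0.32, adjusted p = 0.0775) and without mast cell supernatant replicate 2 or 3 (adjusted p up to 0.0554). Its sister gene Pfkfb4 did not pass in the pooled comparison (0.03 ± 0.12, adjusted p = 0.935).

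Among the other genes of sugar uptake and the first steps, 0 passed. Slc2a1, which encodes the glucose transporter GLUT1, was at 151 to 196 CPM untreated (median 175). After mast cell supernatant it stood at 168 and 198 CPM in batch 1, 126 CPM in batch 2, and 127 and 124 CPM in batch 3. The groups overlapped through batch 1, and the difference of -0.26 ± 0.09 missed the threshold (adjusted p = 0.111). It passed without batch 1 (-0.4, adjusted p = 0.0132) and without mast cell supernatant replicate 4 (-0.34, adjusted p = 0.0139). Slc16a3, which encodes the lactate exporter MCT4, was at 68.7 to 114 CPM untreated (median 97.9). With mast cell supernatant it was at 107 and 105 CPM in batch 1, 78.7 CPM in batch 2, and 117 and 104 CPM in batch 3. These ranges overlapped, with a difference of 0.09 ± 0.05 (adjusted p = 0.377). Over the 12 genes from hexokinase to triose phosphate isomerase, 9 values were positive and 3 negative, with a median of 0.05. Of all 13061 genes, 6314 values were positive and 6747 negative. Besides Hk2 and Pfkfb3, the values of the 12 ran from -0.1 (Pfkl) to 0.2 (Pfkm).

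In the later part of the pathway, from Gapdh to lactate and pyruvate handling, 3 of 7 genes rose and 0 fell. Of all genes, 2.17% were called higher and 2.62% lower. Of the 7 values 6 were positive, beside 6314 of all 13061, with a median of 0.17. The exception was Pgam1, the phosphoglycerate mutase gene, at -0.03. Pgk1 (ENSMUSG00000062070; chromosome X, 106187100 to 106203699) was at 316 to 389 CPM untreated (median 340). Its levels after mast cell supernatant were 445 and 470 CPM in batch 1, 354 CPM in batch 2, and 370 and 352 CPM in batch 3. In each batch every treated library was above the untreated ones of that batch, although the pooled ranges overlapped. Pgk1 rose by 0.17 ± 0.05 (adjusted p = 0.0454), with 0.24, 0.11 and 0.12 by batch.

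Pkm (ENSMUSG00000032294; chromosome 9, 59656368 to 59679375) was at 1790 to 2720 CPM untreated (median 2420). The libraries given mast cell supernatant had 2640 and 2850 CPM in batch 1, 2840 CPM in batch 2, and 2310 and 2140 CPM in batch 3. The ranges overlapped, and the rise of 0.19 ± 0.05 (adjusted p = 0.0272) was 0.18, 0.13 and 0.22 by batch. Pdk1 (ENSMUSG00000006494; chromosome 2, 71873224 to 71903858) was at 49.8 to 66.6 CPM untreated (median 56). After mast cell supernatant it stood at 75 and 68.5 CPM in batch 1, 53.7 CPM in batch 2, and 77.6 and 85.5 CPM in batch 3. It rose by 0.28 ± 0.07 (adjusted p = 0.0362), with 0.13, 0.1 and 0.54 by batch, so batch 3 carried most of the difference. Without batch 3 the values were 0.13 for Pdk1 (adjusted p = 0.211), 0.17 for Pkm (0.0648) and 0.21 for Pgk1 (0.0377).

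Ldha, which encodes the lactate dehydrogenase subunit that makes lactate, had a value as large as that of Pkm and missed the threshold. It was at 525 to 756 CPM untreated (median 631). With mast cell supernatant it was at 813 and 897 CPM in batch 1, 607 CPM in batch 2, and 759 and 691 CPM in batch 3. The ranges overlapped, and the difference was 0.2 ± 0.06 (adjusted p = 0.0742; 0.0421 by DESeq2). Gapdh had 0.15 ± 0.05 (adjusted p = 0.124) and Eno1, the enolase gene, 0.12 ± 0.05 (adjusted p = 0.173). Several of these genes have processed pseudogenes or copies with few counts of their own (200 counts for Pgam1-ps2 and 140 for Ldha-ps2 over all libraries), so the split of reads between copies is uncertain.

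The calls at these later steps were the least stable when 1 library was left out. Pgk1 kept its call only without untreated replicate 3, mast cell supernatant replicate 2 or trap supernatant replicate 2, and its adjusted p ran from 0.0172 to 0.109. Pdk1 lost its call without untreated replicates 2 to 6 or mast cell supernatant replicates 1, 3 or 5, each left out singly (adjusted p up to 0.0869). Pkm lost its call without untreated replicate 1, 2 or 6 or mast cell supernatant replicate 3 or 4 (adjusted p up to 0.0734).

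Of the oxygen-sensing genes, 0 of 3 passed. Hif1a was at 120 to 152 CPM untreated (median 137). Its levels after mast cell supernatant were 136 and 141 CPM in batch 1, 153 CPM in batch 2, and 85.2 and 92.1 CPM in batch 3. Only the batch 3 libraries lay below the untreated range, and the pooled value was -0.18 ± 0.14 (adjusted p = 0.558). Without batch 3 it was 0.12 (adjusted p = 0.623). Egln3 was at 2.76 to 6.88 CPM untreated (median 4.9). It was at 2.65 and 1.61, 3.89, and 6.37 and 5.97 CPM in batches 1, 2 and 3 with mast cell supernatant. These ranges overlapped, with a difference of -0.33 ± 0.16 (adjusted p = 0.269). Egln1, which encodes the main oxygen sensor of the family, had a difference of 0 ± 0.07.

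Of the 7 other hypoxia-responsive genes, Ankrd37 passed. Ankrd37 (ENSMUSG00000050914; chromosome 8, 45996902 to 46005707) was at 14.3 to 18 CPM untreated (median 16.2). The libraries given mast cell supernatant had 7.41 and 8.88 CPM in batch 1, 7.55 CPM in batch 2, and 14.8 and 15.3 CPM in batch 3. The libraries of batches 1 and 2 lay below every untreated one, and those of batch 3 lay within the untreated range. Ankrd37 fell by 0.67 ± 0.15 (adjusted p = 0.0219), or 1.59-fold, with -1, -0.94 and -0.21 by batch. Without batch 3 the value was -0.96 (adjusted p = 0.00534) and without batch 1 it was -0.46 (adjusted p = 0.124). The call was also lost without untreated replicate 4 or mast cell supernatant replicate 1, 2 or 4 (adjusted p up to 0.0782). Ankrd37 shares 57 bases with Ufsp2 on the opposite strand, and the strand setting of the counting is not given. Ufsp2 itself had a difference of -0.07 (adjusted p = 0.444).

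Bnip3, a mitophagy receptor gene, was at 18.4 to 30.1 CPM untreated (median 20.8). After mast cell supernatant it stood at 18.3 and 18.4 CPM in batch 1, 19.5 CPM in batch 2, and 20.7 and 22.1 CPM in batch 3. The ranges overlapped, with a difference of -0.19 ± 0.08 (adjusted p = 0.166). Hilpda, a lipid droplet gene, and Ndrg1, a stress-response gene, had the largest positive values, 0.55 ± 0.24 (adjusted p = 0.235) and 0.42 ± 0.28 (0.452). Their SEs were the widest of the 32. Without batch 1 the value of Ndrg1 was -0.05 (adjusted p = 0.949). Hilpda passed without batch 3 (0.94, adjusted p = 0.0463) and without untreated replicate 3 (adjusted p = 0.0449). P4ha1, Mif and Ero1l, which encode a collagen hydroxylase, a cytokine and an oxidoreductase of the endoplasmic reticulum, had 0, 0.11 and -0.01.

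**Figure D3:**
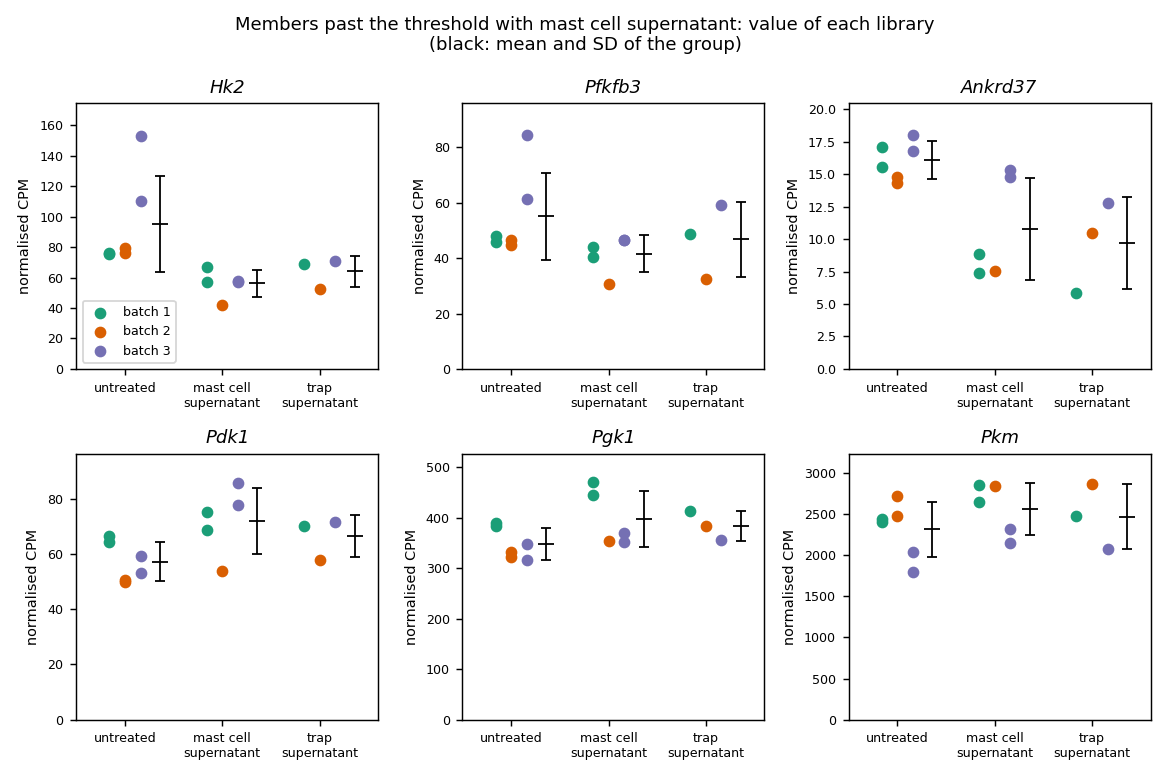
Normalised CPM of the 6 genes past the threshold with mast cell supernatant, in each library (points, coloured by batch) with the mean and SD of each group in black. Hk2 was at 75.4 CPM or more in every untreated library and at 71.1 CPM or less in every treated one, and Ankrd37 reached the untreated range only in batch 3.

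With trap supernatant, 0 of the 32 genes passed by edgeR, beside 1.72% of all genes (0.919% higher and 0.796% lower). At an unadjusted p under 0.05 there were 4 (Hk2, Pgk1, Pdk1 and Ankrd37), beside 1666 of all 13061 genes, a like share. DESeq2 called 2 (Hk2 and Ankrd37), beside 409 of all genes. The median of the 32 was 0.03, against -0.01 for all genes. Of the 32, 18 values were positive and 14 negative, beside 6248 positive and 6813 negative of all genes. Both supernatants were compared with the same untreated libraries, so the values below are set beside those above and not counted as a repeat of them.

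Hk2 was at 69.1, 52.6 and 71.1 CPM in batches 1, 2 and 3 with trap supernatant, again below every untreated library. The difference was -0.54 ± 0.17 (adjusted p = 0.175; 0.0242 by DESeq2), beside -0.78 with mast cell supernatant. By batch it was -0.13, -0.57 and -0.86. Ankrd37 was at 5.83, 10.5 and 12.8 CPM, also below every untreated library, with a difference of -0.76 ± 0.18 (adjusted p = 0.0529; 0.00334 by DESeq2). Its values by batch were -1.47, -0.47 and -0.44, so it was lower in batch 3 as well. These 2 genes were the only ones of the 32 whose groups did not overlap, beside 1.69% of all genes lower and 1.43% higher without overlap. By edgeR Hk2 passed without batch 1 (-0.72, adjusted p = 0.0294). Ankrd37 passed without batch 3 (-0.89, adjusted p = 0.033) and without untreated replicate 3 or 6, mast cell supernatant replicate 2 or trap supernatant replicate 2 (adjusted p down to 0.0284).

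The transporter and glycolysis genes other than Hk2 that are given here had smaller values with trap supernatant than with mast cell supernatant, and each of their ranges overlapped the untreated one. Pfkfb3 was at 48.7, 32.5 and 59.2 CPM in batches 1, 2 and 3 (-0.24 ± 0.11, adjusted p = 0.393). Pgk1 was at 413, 383 and 355 CPM (0.14 ± 0.05, adjusted p = 0.248). Ldha was at 736, 614 and 674 CPM (0.09 ± 0.07, adjusted p = 0.681). None of these 3 passed, and only Pgk1 was above the untreated libraries of its own batch in all 3 batches. Pdk1 was at 70.2, 57.7 and 71.7 CPM (0.22 ± 0.08, adjusted p = 0.259), and it too was above the untreated libraries of each batch. Pkm was at 2470, 2860 and 2070 CPM (0.09 ± 0.05, adjusted p = 0.485). Of the transporters, Slc2a1 was at 149, 155 and 151 CPM (-0.19 ± 0.1, adjusted p = 0.464). It was below the untreated libraries of its own batch in batches 1 and 3 and between them in batch 2. Slc16a3 was at 99.7, 81.3 and 109 CPM (0.07 ± 0.06, adjusted p = 0.728).

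The regulators did not pass either. Hif1a was at 152, 112 and 111 CPM in batches 1, 2 and 3 (-0.14 ± 0.17, adjusted p = 0.814). Egln3 was at 2.72, 4.19 and 6.53 CPM (-0.17 ± 0.18, adjusted p = 0.764), and Bnip3 at 18.2, 18.6 and 24.2 CPM (-0.15 ± 0.09, adjusted p = 0.518). Hif1a was thus above the untreated libraries in batch 1 and below them in batches 2 and 3.

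Set directly against each other, the supernatants gave no difference that passed in the 32 genes: 0 passed by edgeR or DESeq2, and 0 had an unadjusted p under 0.05. Over all genes 0% passed by edgeR (0 of 13061; 569 had an unadjusted p under 0.05, and DESeq2 called 11). The values of 22 genes were lower and of 10 higher with trap supernatant, beside 6487 lower and 6574 higher of all genes. All 7 genes of the later part of glycolysis had lower values, with a median of -0.06 against 0 for all genes. As said, none of these had an unadjusted p under 0.05. The 95% interval of a difference reached from 0.1 (Hk3) to 0.74 (Ndrg1) on either side on the log2 scale, with a median of 0.18. Hk2 had 0.24 (interval -0.14 to 0.62), Pfkfb3 0.21 (-0.04 to 0.46), Ankrd37 -0.09 (-0.5 to 0.32), Pgk1 -0.03 (-0.15 to 0.09) and Ldha -0.12 (-0.28 to 0.04). Each of these intervals held 0, and with 5 and 3 libraries a true difference of any size within its interval is not excluded.

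Whether the response varied between batches was tested with both supernatants in 1 group, not for each alone. So combined, the difference from untreated varied between the 3 batches for 3 of the 32 genes, Pfkfb4, Hif1a and Hilpda, beside 5.36% of all genes (an F test over the 3 batches). There were 11 at an unadjusted p under 0.05, beside 2331 of all 13061 genes, and DESeq2 called 6, beside 943 of all genes. With the replicate block, on 9 libraries, 0 of the 32 and 0 of all genes passed, and the adjusted p was 0.675 for Pfkfb4, 0.875 for Hif1a and 0.531 for Hilpda. Between batches 1 and 2 alone, an alternative chosen after seeing the data, only Hilpda of the 32 passed (adjusted p = 0.0147), while Pfkfb4 (0.116) and Hif1a (0.455) lost their calls.

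Pfkfb4 was at 47.8 to 60.4 CPM untreated (median 50.6). With mast cell supernatant it was at 49.7 and 42.1 CPM in batch 1, 48 CPM in batch 2 and 66.1 and 67.2 CPM in batch 3, and with trap supernatant at 47.8, 59.2 and 58.2 CPM. Treated libraries were below the untreated ones of their batch in batch 1 and above them in batch 3. The log2 difference was -0.34, 0.08 and 0.4 in batches 1, 2 and 3 (adjusted p = 0.00972), and the call was lost without untreated replicate 1 (adjusted p = 0.0739). Hif1a went the other way, with differences of 0.23, -0.12 and -0.56 (adjusted p = 0.0365). Its call held only without mast cell supernatant replicate 2 or trap supernatant replicate 2 or 3, and its adjusted p over these fits ran from 0.00254 to 0.157. Both differences thus had opposite signs in batches 1 and 3, while the untreated levels of neither differed between batches beyond the threshold (adjusted p = 0.0799 and 0.281).

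Hilpda was at 8.52 to 15.5 CPM untreated (median 9.22). Its levels after mast cell supernatant were 24 and 25.3 CPM in batch 1, 10.9 CPM in batch 2 and 10 and 13.1 CPM in batch 3, and those after trap supernatant were 19.7, 9.62 and 14.8 CPM. All 3 treated libraries of batch 1 exceeded every untreated library, and the other treated libraries lay within the untreated range. The differences were 1.24, 0.19 and 0.04 (adjusted p = 0.0412), and the call held only without untreated replicate 3 or 6, mast cell supernatant replicate 2 or trap supernatant replicate 1 or 3 (adjusted p 0.00406 to 0.254 over the fits). Ndrg1 had a similar form, 1.21, 0.16 and -0.25, and missed the threshold (adjusted p = 0.0584). In batch 1 it was at 147 and 188 CPM with mast cell supernatant and 139 CPM with trap supernatant, against an untreated range of 67.5 to 104 CPM over all batches. Hk2 (adjusted p = 0.0529) and Ankrd37 (0.0619) also missed it. These 3 passed by DESeq2 (adjusted p = 0.00199, 0.00346 and 0.0375) and in some fits with 1 library fewer: 3 fits for Ndrg1, 5 for Hk2 and 4 for Ankrd37.

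**Figure D4:**
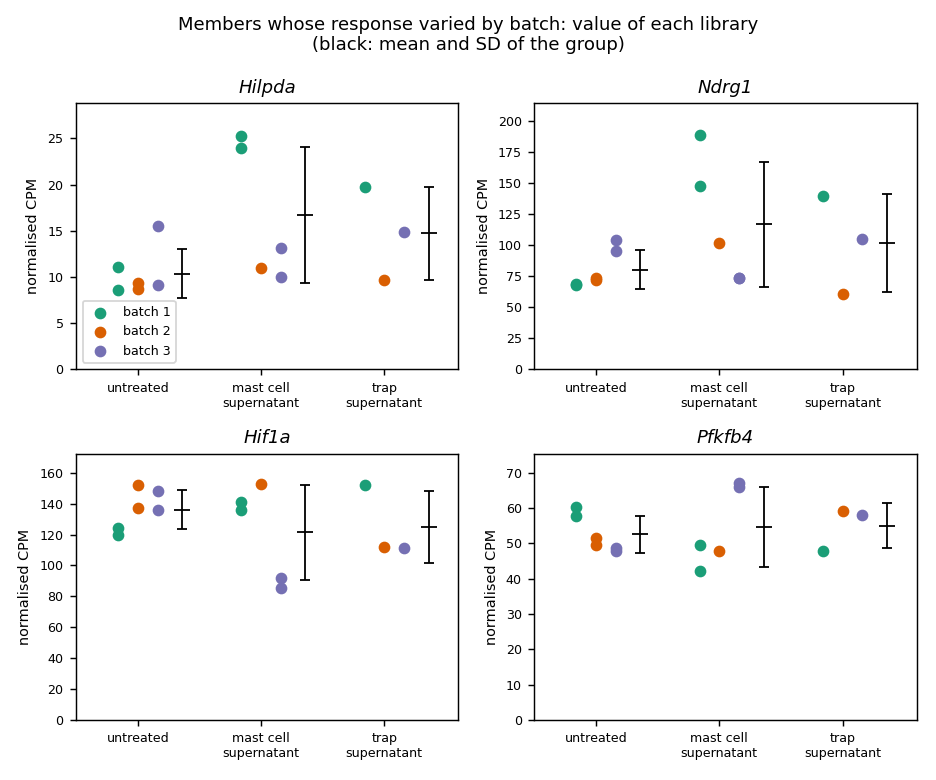
Normalised CPM of Hilpda, Ndrg1, Hif1a and Pfkfb4 in each library (points, coloured by batch), with the mean and SD of each group in black. The treated batch 1 libraries stood highest for Hilpda and Ndrg1, and those of batch 3 with mast cell supernatant were lowest for Hif1a and highest for Pfkfb4.

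Within single batches, Hk2 passed in batches 2 and 3 and Pfkfb4, with opposite signs, in batches 1 and 3. In batch 1, 4 of 32 did, beside 7.56% of all genes (4.53% higher and 3.02% lower). Hilpda and Ndrg1 rose, and Ankrd37 fell by 1.16 ± 0.16 (adjusted p = 0.000261) and Pfkfb4 by 0.34 ± 0.1 (0.0384). Ndrg1 lost its call without untreated replicate 1 or 4 (adjusted p up to 0.12), Hilpda without untreated replicate 4 (0.0534), and Pfkfb4 without 1 of 6 libraries (untreated replicates 1, 2, 4 and 5, mast cell supernatant replicate 4 and trap supernatant replicate 1; adjusted p up to 0.279). In batch 2, which has 1 library of each supernatant, Hk2 alone passed, 1 of 32 beside 1.19% of all genes. It fell by 0.72 ± 0.15 (adjusted p = 0.0388), a call that 8 of 14 fits with 1 library fewer did not make (adjusted p up to 0.333).

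In batch 3, the batch with 1 or 2 Lyz2 reads a library, 7 of 32 passed, beside 8.41% of all genes (3.12% higher and 5.3% lower). Hk2 fell by 1.08 ± 0.14 (adjusted p = 0.000345), Hif1a by 0.56 ± 0.12 (0.0103), Pfkfb3 by 0.52 ± 0.13 (0.0176) and Bnip3 by 0.33 ± 0.1 (0.0473). Pdk1 rose by 0.48 ± 0.09 (adjusted p = 0.0019), Pfkfb4 by 0.4 ± 0.1 (0.0167) and Hk1 by 0.3 ± 0.08 (0.0331). Hk2 and Pdk1 kept their calls in all 14 fits with 1 library fewer. Hif1a lost its call without untreated replicate 3 or 6 (adjusted p up to 0.0669), Pfkfb3 without untreated replicate 3 or mast cell supernatant replicate 3 or 5 (up to 0.174), and Pfkfb4 without untreated replicate 6 or either of those mast cell supernatant libraries (up to 0.0845). Hk1 lost it without untreated replicate 1, 4 or 6 or mast cell supernatant replicate 3 or 5 (up to 0.407), and Bnip3 in 12 of the 14 fits (up to 0.375), all but those without untreated replicate 3 or trap supernatant replicate 3.

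**Figure D5:**
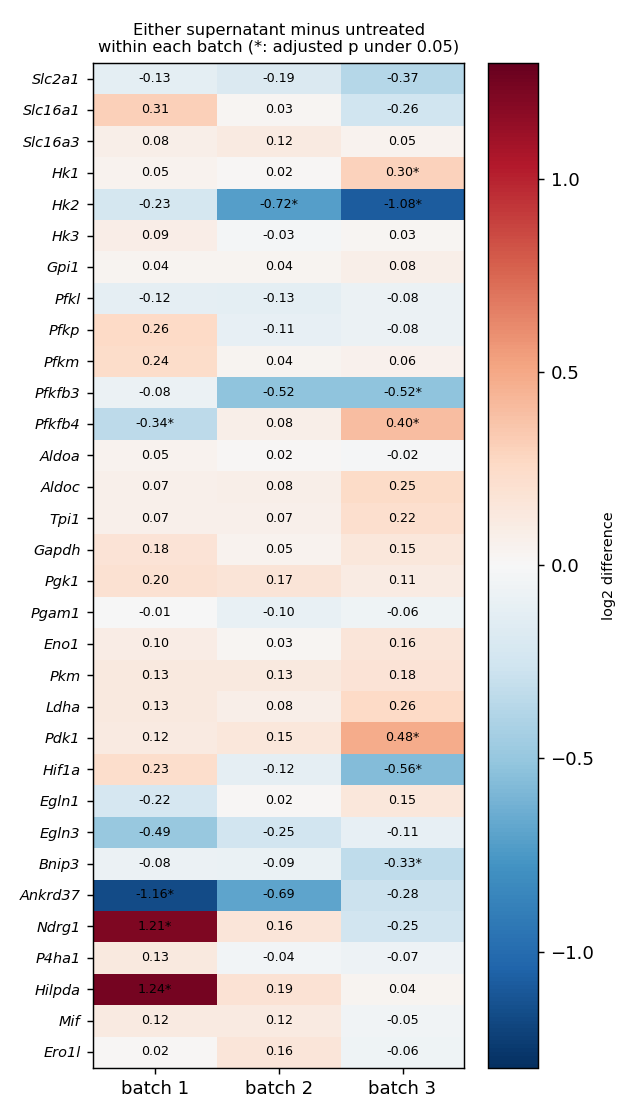
Log2 difference of the libraries given either supernatant from the untreated libraries, for each of the 32 genes within each batch, by colour and printed value; an asterisk marks an adjusted p under 0.05 by edgeR. Batch 1 has 4 such cells, batch 2 has 1 and batch 3 has 7, and no gene has one in every batch.

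The batches also differed before any treatment. Among untreated libraries, 19 of the 32 genes varied between batches, beside 33.6% of all genes and 36.3% of those with a mean of 5 CPM or more. All 7 genes of the later part of glycolysis were among them, as were 8 of the 12 of the first steps, 1 of 3 transporter genes, 1 of 3 oxygen-sensing genes and 2 of the other 7. Hk3 averaged 531, 269 and 499 CPM in batches 1, 2 and 3 (adjusted p = 1.56e-08). Aldoc was highest where Hk3 was lowest, at 28.8, 50.2 and 23.2 CPM (adjusted p = 1.95e-07). Batch 2 thus had the least Hk3 and the most Aldoc, and the same held in its treated libraries. Fibroblast markers were also highest there, with sums of 144 to 166 CPM in batch 2 and 8.87 to 30.4 CPM in the others. Batch 3 had the most Hk2 and Pfkfb3 (adjusted p = 0.00115 and 0.0015) and the most Bnip3 (28.1 CPM, against 19.3 and 20.3; adjusted p = 0.0014). Between batches 1 and 2 alone 11 of the 32 differed, Hk3 and Aldoc among them, and Hk2, Pfkfb3 and Bnip3 did not pass (adjusted p = 0.82, 0.741 and 0.661). It also had the largest neutrophil marker sums, 355 to 449 CPM against 105 to 277 CPM in the others. The part of these other cell types in the levels was not tested. Untreated variation between batches was a span of 0.79 for Hk2 and 0.68 for Pfkfb3, of the same order as their falls with mast cell supernatant.

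Few genes of the same pathways outside the 32 passed in the pooled comparisons, beside 4.79% of all genes with mast cell supernatant and 1.72% with trap supernatant. Of all 13061 genes, 2501 and 1666 had an unadjusted p under 0.05, and DESeq2 called 884 and 409. Of 19 other glycolysis genes tested, edgeR called 0 with either supernatant (unadjusted, 0 with mast cell and 3 with trap supernatant were under 0.05; DESeq2 called 0 with both). Of 35 genes of pyruvate use and the citric acid cycle, edgeR also called 0 with either (unadjusted, 9 and 4 were under 0.05; DESeq2 called 1 and 0). Of 8 pentose phosphate genes, 1 passed with each, H6pd, whose enzyme makes NADPH inside the endoplasmic reticulum. H6pd was at 101 to 172 CPM untreated, 59.4 to 109 CPM with mast cell supernatant and 74.7 to 124 CPM with trap supernatant. The pooled ranges overlapped, but within each batch the log2 difference of means was negative, from -0.74 to -0.46 over both supernatants. H6pd fell by 0.63 ± 0.06 with mast cell supernatant (adjusted p = 8.2e-06) and by 0.48 ± 0.07 with trap supernatant (adjusted p = 0.00122). Both calls held in all 14 fits with 1 library fewer, without batch 3 (-0.69 and -0.47; adjusted p = 6.78e-06 and 0.00124) and with the replicate block (-0.56 and -0.43; 0.00434 and 0.032). Without the batch term the differences were as large, -0.69 and -0.48, and did not pass (adjusted p = 0.187 and 0.971).

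In the HIF pathway, 1 of 14 other genes passed with mast cell supernatant. Vhl, which encodes the ubiquitin ligase subunit that marks HIF-1 alpha for destruction, fell by 0.34 ± 0.07 (adjusted p = 0.00665), from 28.9 ± 2.41 CPM (SD, n = 6) to 23 ± 1.45 (n = 5). Of 36 other hypoxia-responsive genes, 2 fell and 0 rose, a share near that of all genes (4.79%): Ak4, a mitochondrial adenylate kinase gene, by 0.51 ± 0.11 (adjusted p = 0.0128), and Bhlhe41, a clock-related repressor gene, by 0.25 ± 0.06 (adjusted p = 0.0176). With the replicate block none of these 3 passed: Vhl had -0.28 (adjusted p = 0.233), Ak4 -0.51 (0.171) and Bhlhe41 -0.35 (0.0542). Bhlhe41 also lost its call without mast cell supernatant replicate 1 or 2 (adjusted p up to 0.0629), and Ak4 without batch 3 (-0.42, adjusted p = 0.103). With trap supernatant 0 of either list passed by edgeR (unadjusted, 3 of 14 and 4 of 36 were under 0.05; DESeq2 called 0 of either).

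More of these hypoxia-responsive genes differed by batch than moved overall: 7 of 36, beside the same 5.36% of all genes. Bhlhe40, a repressor of transcription, had differences of 0.8, -0.5 and -1.38 in batches 1, 2 and 3 (adjusted p = 0.0199), and Cxcr4, a chemokine receptor gene, 0.71, -0.55 and -1.3 (adjusted p = 0.00784). Both were higher with supernatant in batch 1 and lower in batch 3. The same order was seen for Cited2, which competes with HIF-1 for its coactivator (1.91, 0.77 and -0.16; adjusted p = 0.0196), for Slc2a6, a sugar transporter gene (0.28, 0.01 and -0.6; adjusted p = 0.0153), and for Acod1, which makes itaconate in activated macrophages (1.18, 0.28 and -1.86; adjusted p = 0.00151). They come from the HIF pathway, glycolysis and pyruvate lists, where 1 of 14, 2 of 19 and 1 of 35 passed between batches. Several of these 5 genes are also known as targets of inflammatory signals. The order was not general: Ppp1r3b, also on the hypoxia-responsive list, ran the reverse way. In batch 1 it was at 17.2 and 16.6 CPM untreated and 7.56 to 10.1 CPM treated. In batch 3 it was at 15.6 and 11.7 CPM untreated and 18.2 to 19 CPM treated. Between batches 1 and 2 alone, Acod1 passed (adjusted p = 0.0194) and Bhlhe40, Cxcr4, Cited2 and Slc2a6 did not (0.168, 0.0674, 0.334 and 0.324). Markers of neutrophils and fibroblasts moved in the same order as these 5 genes. Those of mast cells (medians of 4.14, 9.83 and 6.97 in batches 1, 2 and 3) and macrophages (0.08, 0.03 and 0.05) did not. Of 14 neutrophil markers, 12 were higher with supernatant in batch 1 (median 0.43, 3 passed) and 11 lower in batch 3 (median -0.3, 2 passed). Of all 13061 genes, 6261 had positive values in batch 1 and 6513 negative ones in batch 3. The shares called were 4.53% higher in batch 1 and 5.3% lower in batch 3. The medians of 4 fibroblast markers were 0.74 and -0.39 in these batches, with 0 passed by edgeR (unadjusted, 3 and 0 were under 0.05; DESeq2 called 1 and 0). The 12 mitochondrial mRNAs did not keep this order, with medians of 0.1, 0.15 and -0.24 in batches 1, 2 and 3. Of them 7 had positive values in batch 1, where 3 passed as higher, and 10 in batch 2. In batch 3, 11 had negative values, of which edgeR called 0 (unadjusted, 0 were under 0.05, and DESeq2 called 0). The part of these markers and mRNAs in the batch differences was not tested. With the replicate block none of Bhlhe40, Cxcr4, Cited2, Slc2a6 and Acod1 passed (adjusted p from 0.156 for Acod1 to 0.875 for Slc2a6). Acod1 kept its call in all 14 fits with 1 library fewer. The other 4 lost theirs without untreated replicate 1 or 4 (adjusted p up to 0.116 over all these fits). Bhlhe40, Cited2 and Slc2a6 also lost theirs without untreated replicate 6, Cited2 and Slc2a6 without mast cell supernatant replicate 3 or 5, and Cited2 without mast cell supernatant replicate 4. Hif1a, with 0.23, -0.12 and -0.56, fell in the same order, and Pfkfb4, with -0.34, 0.08 and 0.4, in the reverse one.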

How the data were processed

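Poly(A) RNA sequencing of 14 libraries of mouse bone marrow-derived macrophages was used, with the groups, replicate numbers and batches as the labels give them. What the authors deposited is a table of raw read counts by gene. The submitters' processing notes name featureCounts 2.0.0 and the build GRCm38. RNA was extracted with a Qiagen column kit and libraries were stranded, per the labels' protocols. Not given in the sources used here are the aligner, annotation release, strand setting and read filters. Identifiers were matched to GENCODE M21 for 47310 of 47937 genes, and coordinates and exon lengths come from it.

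The analysis used edgeR 4.0.16 under R 4.3.3: filterByExpr by group, TMM scaling, robust quasi-likelihood F tests with batch in the model over all 14 libraries, and Benjamini-Hochberg adjustment over the 13061 genes kept, at 0.05. Within-batch tests and the tests between batches used 1 mean per batch for untreated and for supernatant libraries, with both supernatants together. SEs are those implied by the F statistic. Levels are TMM-normalised CPM (counts scaled to a common total), and a within-batch value of 1 supernatant is the difference of means of log2 CPM, with 1 as prior count. The members, the gene lists and the tests were chosen with earlier results of these data known. Values in every library are given for members past the threshold in the pooled comparisons or between batches, and for a panel of 10 members, and up to 3 genes per direction are named from each other list, with a mean of at least 5 CPM; 1 gene so chosen is not reported here.

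Replicate numbers 1 to 3 carry the same batch label in every group, so they pair the libraries by batch. Once group means were subtracted, correlations over genes were 0.293 to 0.718 in the 9 same-number pairs and -0.556 to 0.168 in the 18 other pairs. DESeq2 1.42.0, other scaling and filters, no batch term, the replicate block and fits without single libraries or batches were tried as alternatives, with the tests between batches without batch 3 added after seeing the data. The tests were checked on simulated counts. Depth limits genes of a few CPM most. Protein sequences were not used here.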

Additional observations from a re-analysis of the deposited data

Results flagged for a closer look

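Each of the 32 genes was examined in the 6 untreated and in the 5 mast cell supernatant libraries, which gave 64 groups of values. Of these, 4 held a library that lay apart from the others by Dixon's test, where chance gives about 1 in 20. The 3 trap supernatant libraries were not examined in this way. Hk3 was at 261 CPM in mast cell supernatant replicate 2, against 502 to 588 CPM in the other 4, and Aldoc was at 52.3 CPM in the same library, against 27.3 to 31.2 CPM. This is the only library of its group in batch 2, and the untreated libraries of batch 2 had like values of both genes (means of 269 and 50.2 CPM). Untreated replicate 3 held more P4ha1, at 155 CPM against 121 to 134 CPM, and more Hilpda, at 15.5 CPM against 8.52 to 11 CPM, than the other 5 untreated libraries.

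The difference between supernatant and untreated libraries varied between batches for Pfkfb4 (adjusted p = 0.00972), Hif1a (0.0365) and Hilpda (0.0412) by edgeR's F test over batches. In batches 1, 2 and 3 the log2 differences were -0.34, 0.08 and 0.4 for Pfkfb4, 0.23, -0.12 and -0.56 for Hif1a, and 1.24, 0.19 and 0.04 for Hilpda.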

How the results depend on the processing

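DESeq2's scaling factors in edgeR moved no count by over 1.5 times and shifted the median of all genes by at most 0.012 on the log2 scale. DESeq2 itself called 2 of the 32 genes and 409 of all genes with trap supernatant, 11 genes between the supernatants, 6 of the 32 between batches, and 3 of the 32 and 316 of all genes in batch 2. Without a filter, 7 of the 32 and 1498 genes passed between batches, 1620 genes in batch 1, 3 and 640 in batch 2, and 1789 in batch 3, and the adjusted p of Ndrg1 between batches became 1.71e-26, a cause that was not tested. With a mean of at least 5 CPM, 5 of the 32 passed between batches. Without the batch term, 0 of the 32 and 62 genes passed with mast cell supernatant and 15 genes with trap supernatant. With only the groups compared, 3 of the 32 passed with mast cell supernatant and 22 genes between the supernatants.

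With the replicate block, 0 of the 32 and 84 genes passed with mast cell supernatant, 36 genes with trap supernatant, and 0 of the 32 and 0 of all genes between batches; this fit has 9 libraries and, since the number is the batch, differs from the reported one in that only. Without batch 1, 3 of the 32 passed with mast cell supernatant, and 1 of the 32 and 116 genes with trap supernatant. Without batch 2, 0 of the 32 and 231 genes passed with mast cell supernatant and 88 genes with trap supernatant. Without batch 3, 1 of the 32 passed with trap supernatant and 1 gene between the supernatants; in fits added after seeing the data, 1 of the 32 and 235 of all genes differed in response between batches 1 and 2, and 11 of the 32 among untreated libraries.

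Of the genes followed through these settings, those that changed sign had not passed in the reported fit. With mast cell supernatant, Hif1a became 0.12 without batch 3 and Ndrg1 -0.05 without batch 1. With trap supernatant, Hif1a became 0.01 without trap supernatant replicate 2 (-0.28 to 0.01 over the fits with 1 library fewer). Between the supernatants, Ankrd37 was 0 with the replicate block, 0.02 without batch 1, 0.07 without batch 3 and 0.13 without trap supernatant replicate 1, and Pgk1 was 0.04 without batch 1 and 0.01 without that replicate (-0.29 to 0.13 and -0.08 to 0.01 over such fits).

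Over the 14 fits that left out 1 library, 2 to 7 of the 32 passed with mast cell supernatant, 0 to 1 with trap supernatant (97 to 280 of all genes) and 0 between the supernatants (0 to 3). Between batches 0 to 8 of the 32 passed (235 to 1175 of all genes), and among untreated batches 12 to 20 (2751 to 4826). Within batches 1, 2 and 3 they were 1 to 6 (240 to 1282), 0 to 3 (19 to 333) and 3 to 9 (418 to 1844).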
